A study of Cyprinus carpio with 6 samples.

Results

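DNA methylation genes were examined in whole common carp embryos, to ask whether RNA of the enzymes that write methyl groups and of the proteins that read them differed between embryos sired by aged sperm and embryos sired by fresh sperm. Members were the gene symbols that begin, in lower case, with dnmt, tet followed by 1, 2 or 3, uhrf, or mbd followed by a number between 1 and 6. Of 40568 counted features, 4 fitted: the de novo methyltransferase genes dnmt3ba and dnmt3ab, and the methyl-CpG-binding domain genes mbd3b and mbd4. All 4 had counts in 6 of 6 libraries. Thus the set held writers and readers, and no member of the TET or UHRF families and no dnmt1 was found by symbol. The RefSeq annotation of the same assembly, ASM1834038v1, lists 6 symbols that fit the rule. The other 2 of them, tet2 and dnmt3bb.3, were not among the counted features. Of the 32765 annotated genes with a count, 24674 carry only a LOC number as their symbol, so that further copies under such numbers cannot be found by name.

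The embryos were at the mid-blastula stage, with 3 libraries from sperm that had been kept on ice for 14 days (aged sperm) and 3 libraries from fresh sperm (0 days). Sperm of the same males was used fresh and after storage, in both groups to fertilise oocytes of 1 female, and no allele or transgene was involved. No source ties a library to a male, so the p-values measure the spread between these libraries, which may be technical. RNA came from whole embryos, and fewer cells of a type cannot be told apart from less RNA per cell.

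The libraries held 14993459 to 15632387 estimated counts in embryos from aged sperm and 15102045 to 15185710 in embryos from fresh sperm. The third library of each group stood apart from the other 4. On the first principal component, which held 22.9% of the variance, replicate 3 scored 53.2 in the aged-sperm group and 44.0 in the fresh-sperm group, and the others scored between -28.6 and -15.2. The fold changes of the members and the count of all genes called are therefore also given without both of these libraries. This alternative was chosen after seeing the data. Mitochondrial genes took 1.80 to 2.57% of the counts in embryos from aged sperm and 1.37 to 1.93% in embryos from fresh sperm. Of 10 maternal and pluripotency symbols looked up as markers of the early embryo, 5 were counted, and their summed level was 3856 to 4148 FPKM in embryos from aged sperm and 3871 to 4209 FPKM in embryos from fresh sperm. FPKM is the usual count of fragments scaled by transcript length and by depth. The cyclin genes ccnb1 and ccna1 were the highest of the 5, at means of 1576 and 1427 FPKM. The others were nanog (599 FPKM), pou5f3 (336 FPKM) and sox19b (44.5 FPKM). Of 14 markers of later tissues, 2 were counted, and their summed FPKM was listed at 0 in the libraries from aged sperm and at 0.03 or less in those from fresh sperm. The listed 0 is rounded: the titin gene ttn.1 had 3, 5 and 4 counts with aged sperm and 1, 0 and 2 counts with fresh sperm. Of 8 sperm and testis markers, 2 were counted, at a sum of 0.07 to 0.15 FPKM in either group. A marker without a count under its symbol may be counted under a LOC number. The sums therefore cover the named symbols alone and do not show that a tissue was absent.

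In vertebrates most cytosines that precede a guanine are methylated. DNMT3 enzymes place new methyl groups, DNMT1 with its partner UHRF1 copies existing marks after replication, and TET enzymes oxidise them as a step towards removal. MBD proteins bind methylated DNA or belong to complexes that act there. In zebrafish, a relative of the carp, the methylation pattern of the sperm is largely kept after fertilisation, while that of the oocyte is brought towards it before the mid-blastula transition, when the embryo's own genome becomes broadly active. RNA measured around this stage is therefore to a large extent maternal. The common carp descends from a hybrid and carries A and B subgenomes, and many of its genes exist as a copy on each.

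All 4 genes lie on B chromosomes, where named symbols are more common. In RefSeq, 6438 protein-coding genes on B chromosomes carry a name in place of a LOC number, and 3178 on A chromosomes do. dnmt3ba (gene ID 109067174) spans 15925 bases of chromosome B8, from 11613241 to 11629165, with 6 annotated transcripts. dnmt3ab (109061124) is the longest gene of the set, spanning 54192 bases of B17 from 18776289 to 18830480, with 9 transcripts. mbd3b (109046746) covers 6523 bases of B22 from 24794344 to 24800866, with 3 transcripts. mbd4 (109045581) covers 3713 bases of B8 from 28407099 to 28410811 and has a single annotated transcript. RefSeq places no other gene over any of the 4 loci, although close neighbours exist: LOC109052365 lies 351 bases from mbd4 and mapre1a 479 bases from dnmt3ba. Coordinates are of ASM1834038v1, the assembly to which the authors mapped their reads.

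The levels of the 4 genes spanned more than 2 orders of magnitude per length. dnmt3ba stood at 20.2 ± 1.23 FPKM in embryos from aged sperm and 20.9 ± 0.982 FPKM in embryos from fresh sperm (SD, n = 3 each), above 78.9% of the tested genes by its mean. mbd3b followed at 3.59 ± 0.581 FPKM with aged sperm and 3.20 ± 0.565 FPKM with fresh sperm, above 42.0% of tested genes. Next was mbd4, at 2.21 ± 1.29 FPKM with aged sperm and 1.42 ± 0.851 FPKM with fresh sperm, above 29.7%. dnmt3ab was lowest, at 0.107 ± 0.0379 FPKM with aged sperm and 0.133 ± 0.0473 FPKM with fresh sperm, above 0.424% of the tested genes. Across the 6 libraries the ranges of dnmt3ba and of dnmt3ab overlapped with no other member. The neighbours mbd3b (2.63 to 4.06 FPKM) and mbd4 (0.74 to 3.19 FPKM) did overlap in range, although mbd3b was the higher of the pair within 6 of 6 libraries.

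**Figure D1:**
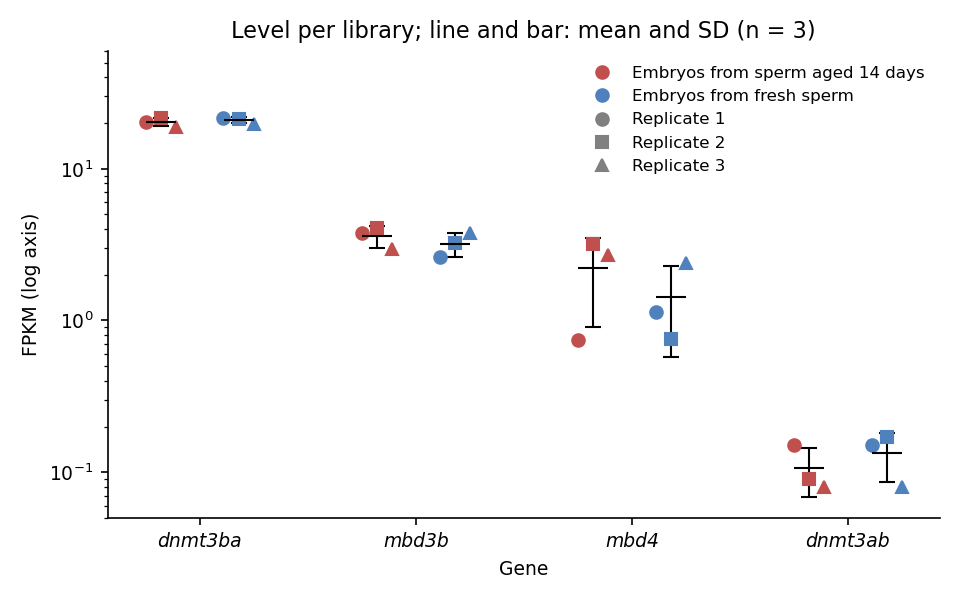
Level of the 4 DNA methylation genes in each library, in FPKM on a log axis, for embryos from sperm aged 14 days (red) and from fresh sperm (blue). Lines and bars give the mean and SD of 3 libraries, and the points of both groups overlap for each gene, with the widest relative spread for mbd4 (0.74 to 3.19 FPKM).

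None of the 4 genes was called as changed by the test used. An absent call does not show that levels were equal, and the intervals given below differ widely in width. By the quasi-likelihood test of edgeR, with p-values adjusted after Benjamini and Hochberg over 27342 tested features, 0 of 4 members had an adjusted p under 0.05, where 0.0146% of all tested features (4 genes) did. At an unadjusted p under 0.05 there were also 0 of 4, where 3.36% of all tested features passed. DESeq2 gave 0 of 4 at either limit. Of the 31812 features with a DESeq2 adjusted p, 0.182% had one under 0.05. Of the 40460 features with a DESeq2 unadjusted p, 1.82% had one under 0.05. The CPM values (counts scaled to a common library size after TMM normalisation) of the aged-sperm and fresh-sperm groups overlapped for each of the 4 genes, and 8.56% of all tested features had groups that did not overlap. dnmt3ba and dnmt3ab had a log2 fold change below 0, mbd3b and mbd4 one above 0. That made 2 of 4 below 0, where 50.3% of all tested features were. The median log2 fold change was 0.05 over the 4 members and -0.00090 over all tested features.

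Among the writers, dnmt3ba carries the name of a zebrafish gene of the Dnmt3b type, the enzyme that in mammals does much of the new methylation in early embryos. It had 2083, 2161 and 1875 estimated counts in the 3 libraries from aged sperm and 2148, 2125 and 1975 in those from fresh sperm. On the CPM scale these were 130.8, 140.1 and 128.0 with aged sperm, and 140.8, 139.1 and 134.8 with fresh sperm. The second aged-sperm library lay inside the range of the fresh-sperm libraries, and the other 2 lay below it. The means were 133.0 ± 6.34 CPM with aged sperm and 138.2 ± 3.06 CPM with fresh sperm. The log2 fold change was -0.06 (SE 0.05, edgeR adjusted p = 0.9998), with a 95% interval of -0.18 to 0.07, or a fold between 0.884 and 1.05. This was the narrowest interval of the 4 genes. The value was -0.05 without both libraries numbered 3, and -0.09 to -0.03 with each library left out in turn.

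The spread of dnmt3ba between libraries was small in absolute terms and near the middle of all genes for its abundance. Its coefficient of variation was 4.77% in embryos from aged sperm and 2.22% in embryos from fresh sperm, and the highest CPM of the 6 libraries was 1.10 times the lowest. The biological coefficient of variation that edgeR fitted to the gene was 5.53%, where the trend over genes of like abundance gave 8.07%. The ratio of both, 0.685, was higher than in 40.8% of the tested genes. Its counts were whole numbers in 6 of 6 libraries. Since RSEM divides a read between loci when it aligns to several, whole counts occur where no reads were divided. Of the tested genes 42.2% had whole counts in all libraries. mapre1a, which lies 479 bases away and encodes a microtubule end-binding protein, had 1320, 1260 and 1025 counts with aged sperm and 1177, 1270 and 1127 with fresh sperm. On the other side, LOC122138176, a long non-coding RNA gene 5783 bases away, was not among the counted features.

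The other writer, dnmt3ab, is named after a zebrafish gene of the Dnmt3a type, which in mammals methylates DNA in germ cells and in later tissues. It was barely counted, with 14, 8 and 7 counts in embryos from aged sperm and 14, 15 and 7 in embryos from fresh sperm, 65 in all. As CPM these were 0.879, 0.519 and 0.478 with aged sperm and 0.917, 0.982 and 0.478 with fresh sperm. Both groups held libraries at the upper and at the lower end, with replicate 3 lowest in each. The log2 fold change was -0.34 (SE 0.42, edgeR adjusted p = 0.9998), with a 95% interval of -1.32 to 0.65, or a fold of 0.399 to 1.57. Any change within this interval is compatible with these few counts. The estimate was -0.44 without both libraries numbered 3, and ran between -0.66 (without the first aged-sperm library) and -0.15 (without the second fresh-sperm library). The gene's neighbours on B17 were also low: dpysl5a, 3982 bases away, had 19, 31 and 22 counts with aged sperm and 31, 18 and 12 with fresh sperm, and LOC109061157, 3071 bases away, had at most 4 counts in a library.

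Of the RNA counted for dnmt3ba and dnmt3ab together, almost all was of dnmt3ba. Per base of transcript, dnmt3ba had 138, 246 and 244 times the counts of dnmt3ab in the libraries from aged sperm, and 142, 130 and 263 times in those from fresh sperm. Between libraries the highest count was 2.14 times the lowest for dnmt3ab and 1.15 times for dnmt3ba. On the log2(FPKM + 0.1) scale the ratio was 6.64 ± 0.25 with aged sperm and 6.51 ± 0.25 with fresh sperm (SD, n = 3 each), a difference of 0.12. A two-sided exact permutation test, with 10 arrangements of 3 libraries against 3, gave p = 0.7 (adjusted over the 2 ratios compared, 0.7), in a design whose smallest possible p is 0.1. The added 0.1 is close to the FPKM of dnmt3ab itself (0.08 to 0.17), so the size of this difference depends on the scale: it was 0.27 from estimated counts (exact permutation p = 0.8) and -0.0098 with FPKM + 1 (p = 1.0). The comparison covers these named copies alone. dnmt3bb.3 was not counted, and any other DNMT3 gene or A-subgenome copy under a LOC number is not included.

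**Figure D2:**
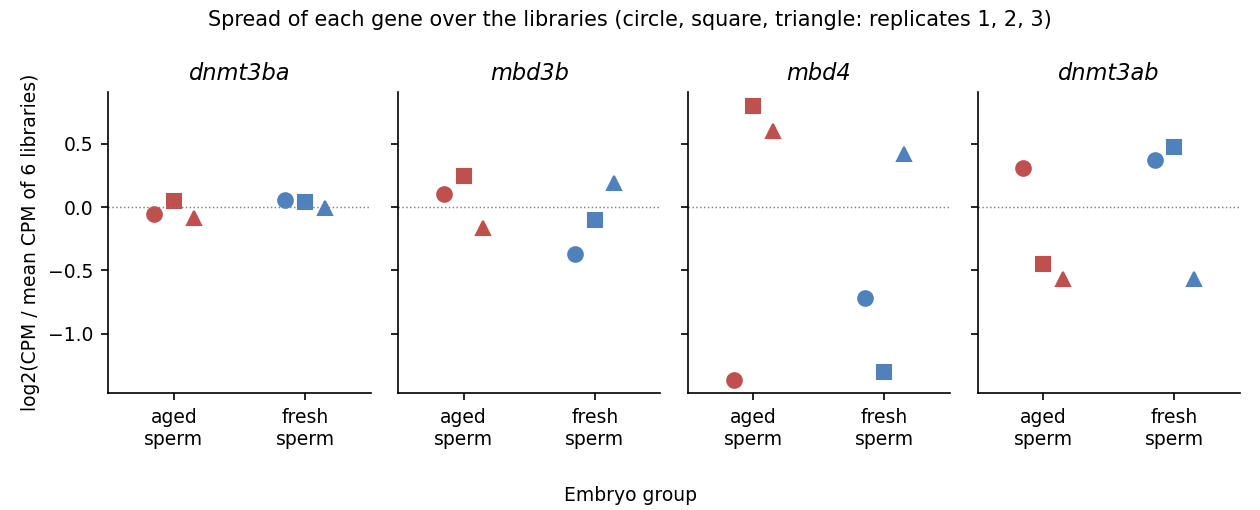
Each gene's CPM in each library as a log2 ratio to its mean over the 6 libraries, for embryos from aged sperm (red) and from fresh sperm (blue). dnmt3ba stays close to 0, whereas mbd4 falls into 3 higher libraries (aged replicates 2 and 3, fresh replicate 3) and 3 lower ones (aged replicate 1, fresh replicates 1 and 2).

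Among the readers, mbd3b is a copy of Mbd3, in mammals a subunit of the NuRD complex, which removes acetyl groups from histones and moves nucleosomes; mammalian Mbd3 itself binds methylated DNA poorly. It had 42, 45 and 32 counts in embryos from aged sperm and 29, 35 and 41 in embryos from fresh sperm, whole in 6 of 6 libraries. In CPM these were 2.64, 2.92 and 2.18 with aged sperm and 1.90, 2.29 and 2.80 with fresh sperm. The highest library was from aged sperm and the lowest from fresh sperm, with the remaining 4 interleaved. Means were 2.58 ± 0.370 CPM with aged sperm and 2.33 ± 0.451 CPM with fresh sperm. The log2 fold change was 0.15 (SE 0.23, edgeR adjusted p = 0.9998), with a 95% interval of -0.38 to 0.68, a fold of 0.766 to 1.60. It was 0.40 without both libraries numbered 3 and 0.02 to 0.30 with single libraries left out. The fitted biological coefficient of variation of mbd3b was 19.6%, where the trend at its abundance was 31.9%.

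mbd4 encodes a protein that combines a methyl-CpG-binding domain with a DNA glycosylase, which in mammals removes the thymine or uracil left when a methylated or unmethylated cytosine is deaminated. It was the most variable member. It had 12.1, 51.8 and 42.7 estimated counts in embryos from aged sperm and 18.4, 11.9 and 38.2 in embryos from fresh sperm. In CPM these were 0.754, 3.37 and 2.94 with aged sperm and 1.18, 0.786 and 2.59 with fresh sperm. Libraries of both groups fell at both ends: the highest and the lowest of the 6 were both from aged sperm, a factor of 4.47 apart. The coefficient of variation was 59.6% with aged sperm and 62.6% with fresh sperm.

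Accordingly, mbd4 had the widest interval of the set. The means were 2.35 ± 1.40 CPM with aged sperm and 1.52 ± 0.951 CPM with fresh sperm. The log2 fold change was 0.63 (SE 0.62, edgeR adjusted p = 0.9998), and the 95% interval of -0.84 to 2.09 covers folds between 0.560 and 4.27. The median SE over all tested features was 0.15. The estimate moved to 1.05 without the first aged-sperm library, to 1.25 without the third fresh-sperm library and to 0.28 without the second aged-sperm library, and it was 1.06 without both libraries numbered 3. In no such fit was the unadjusted p of mbd4 in edgeR under 0.0749. It stayed above 0 in each of the fits made, but the spread within each group was larger than the difference between their means.

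Further, the spread of mbd4 exceeded that of genes of like abundance. Its fitted biological coefficient of variation was 53.5%, against a trend of 34.0%, and the ratio of both, 1.57, was higher than that of 94.4% of the tested genes. For dnmt3ab and mbd3b the ratio was 0.762 and 0.614, higher than in 57.9% and 19.97% of tested genes. mbd4 was also the sole member whose estimated counts were not whole, in 6 of 6 libraries, as they were for 37.8% of the tested genes. Some reads assigned to mbd4 were therefore divided with at least 1 other locus, and its values depend on how RSEM divided them. The part of this division in the spread was not tested. The nearest gene, LOC109052365 at 351 bases, was even across libraries, with 495, 429 and 447 counts from aged sperm and 476, 452 and 428 from fresh sperm.

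mbd3b and mbd4 are separate genes of the MBD family and not copies of a single gene, and their ratio followed mbd4. Per base of transcript mbd3b had 4.645, 1.162 and 1.002 times the counts of mbd4 in the libraries from aged sperm and 2.11, 3.93 and 1.44 times in those from fresh sperm. The log2 ratio, from FPKM + 0.1, was 0.89 ± 1.14 with aged sperm and 1.25 ± 0.67 with fresh sperm (SD, n = 3 each). The difference of -0.36 had p = 0.6 in the two-sided exact permutation test (adjusted 0.7), and its sign turned when single libraries were left out (-1.02 to 0.02).

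**Figure D3:**
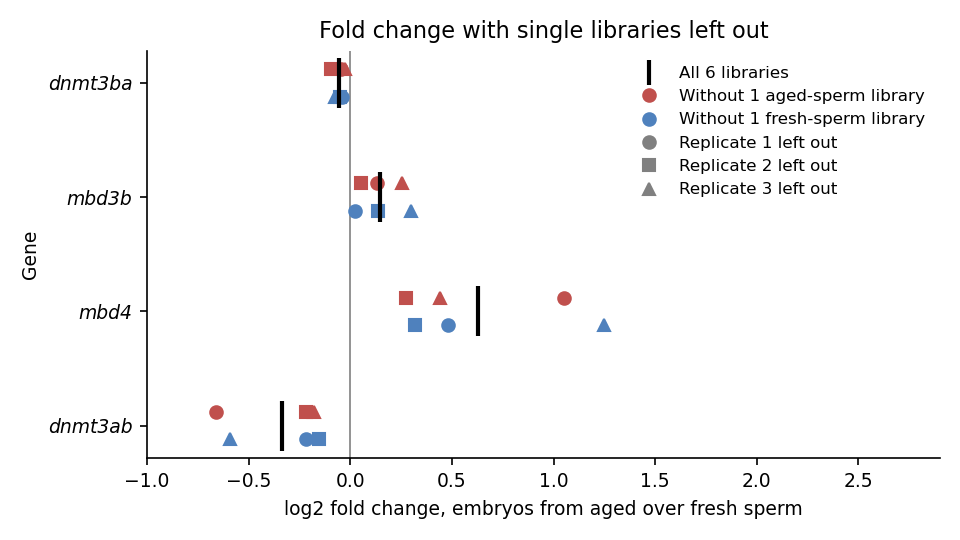
edgeR log2 fold change of embryos from aged over fresh sperm for the 4 genes, with all 6 libraries (black bar) and with each library left out (red, an aged-sperm library; blue, a fresh-sperm library; shape, its replicate number). dnmt3ba stays between -0.09 and -0.03, while mbd4 runs between 0.28 and 1.25, and no gene crosses 0.

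The members were then set beside the genes they work with. A list of 89 symbols was drawn up by role: supply of the methyl donor, maintenance of methylation, demethylation and repair, other readers of CpG sites, NuRD subunits, and 1 RNA methyltransferase related to the DNMT family, trdmt1, which had no count under that symbol. Of these symbols 38 were counted and 28 were tested. None of the 28 passed the adjusted test in edgeR in either direction (background 0.0146%), 0 were higher and 1 was lower at an unadjusted p under 0.05 (background 3.36%), and 2 had groups that did not overlap (background 8.56%). The median log2 fold change of the 28 was -0.02, with 12 above 0 and 16 below.

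The maintenance partners and NuRD subunits included the most abundant genes of the list. Lymphoid-specific helicase, hells, is a chromatin remodeller that mammalian cells need to methylate repeats. It stood at 120, 116 and 119 FPKM in embryos from aged sperm and 107, 117 and 111 FPKM in embryos from fresh sperm, with a log2 fold change of 0.07 (SE 0.06). The groups of hells overlapped through the second library of each. cdca7b, a copy of the gene whose product activates that helicase in mammals, was at 102, 97.1 and 109 FPKM with aged sperm and 110, 106 and 116 FPKM with fresh sperm (log2 fold change -0.12, SE 0.08). mta2, a core subunit of NuRD, was at 100.01, 102 and 106 FPKM with aged sperm and 100.5, 97.9 and 104 FPKM with fresh sperm (log2 fold change 0.02, SE 0.06). Each of these 3 had a mean FPKM several times that of dnmt3ba, and none passed the edgeR test (adjusted p = 0.9998 for each).

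By role, 6 of 15 maintenance partners were tested (median log2 fold change -0.02), and 4 of 15 NuRD symbols (0.0026). In demethylation and repair 5 of 27 were tested, with a median of 0.02. In the methyl donor cycle 8 of 17 were tested, of which 2 were above 0 and 6 below, with a median of -0.05. Among these, mtr, the methionine synthase gene, was named after its values were seen, because its groups did not overlap: 280, 268 and 278 CPM with aged sperm and 294, 290 and 312 CPM with fresh sperm. Its log2 fold change was -0.12 (SE 0.05, edgeR unadjusted p = 0.0541, adjusted p = 0.9998).

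The other readers held the gene with the smallest p of the list, baz2a. Its mammalian product TIP5 is a subunit of a complex that silences ribosomal RNA genes. TIP5 has a domain related to the methyl-CpG-binding domain, but the paper describes baz genes as readers of acetylated lysine. Whether the baz2a product reads methylated CpG was not tested. baz2a (on chromosome B23) had 361, 416 and 414 CPM in embryos from aged sperm and 439, 437 and 496 CPM in embryos from fresh sperm. Each library from aged sperm was below each from fresh sperm. The means were 397 ± 31.2 CPM with aged sperm and 457 ± 33.5 CPM with fresh sperm, and the log2 fold change was -0.20 (SE 0.08, edgeR unadjusted p = 0.039, adjusted p = 0.9998; DESeq2 adjusted p = 0.99996). It did not pass the adjusted test, and ran between -0.24 and -0.14 with single libraries left out. The list was drawn up with earlier results of these data known, so the rank of baz2a within it is no independent support. In edgeR 1 of the 28 tested list genes had an unadjusted p under 0.05, against 3.36% of all tested features. The paper lists baz2a RNA as lower in embryos from aged sperm, by limits on fold and adjusted p that these values do not reach. It also lists lower baz2a methylation in the aged sperm, in the gene body, and in the embryos, which was not examined here. Whether the paper's entry is this locus was not tested. In all, 5 of 14 other-reader symbols were tested, of which 2 had a log2 fold change above 0 and 3 below. Their median was -0.17, within a range of -0.33 to 1.83.

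**Figure D4:**
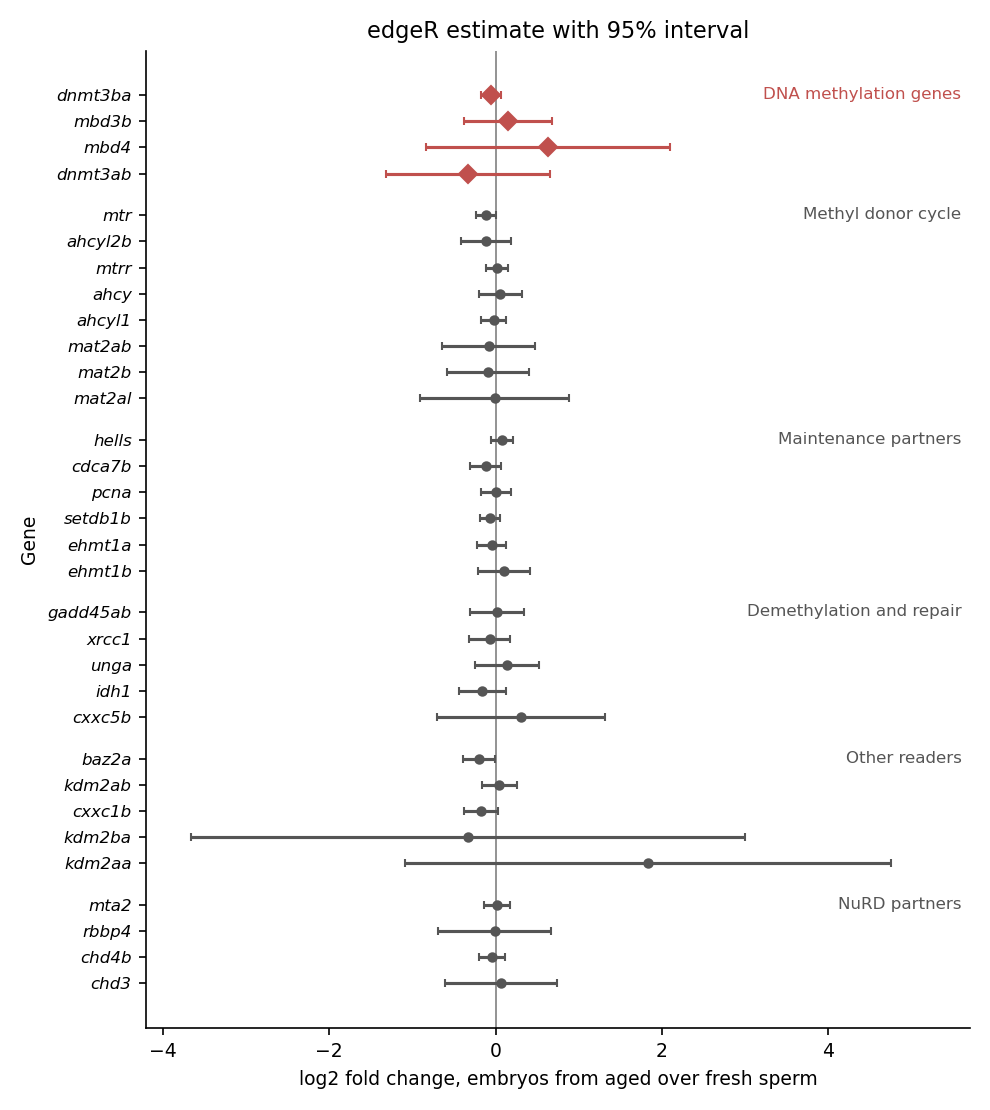
edgeR log2 fold changes of embryos from aged over fresh sperm with 95% intervals, for the 4 DNA methylation genes (red) and the 28 tested genes of the pathway list, by role (grey). The intervals of dnmt3ba (-0.18 to 0.07), hells, cdca7b and mta2 are narrow and include 0, while that of baz2a (-0.39 to -0.014) lies below 0. Those of mbd4, dnmt3ab and the sparsely counted partners are wide, as is that of the NuRD subunit rbbp4 (-0.69 to 0.67).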

How the data were processed

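RNA-Seq values of 6 libraries were used, 3 per group by their labels. The authors enriched mRNA with oligo(dT) and sequenced on DNBSEQ. They used HISAT2 for mapping, StringTie and Cuffmerge for transcript models, and Bowtie2 for alignment to these. The submitters' processing notes name HISAT2, StringTie, Bowtie2 and DESeq2 without versions, and the deposited tables name RSEM. The authors deposited an estimated count (expected count) and an FPKM value per gene, and a table of their own comparison (fold changes and p-values), which was not used. A further 18 columns of the library tables were left out. Transcript lengths used for ratios per base are those the deposited tables give.

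Estimated counts were rounded to whole numbers. Features passing filterByExpr (27342) were tested in edgeR 4.0.16 (R 4.3.3; TMM, quasi-likelihood, Benjamini-Hochberg adjustment; limit 0.05). The SE is the log2 fold change over the square root of F. Levels between genes were compared in FPKM or as counts per base of transcript. Estimated counts without length served only as an alternative scale for the difference of a ratio between the groups. The ratio tests added 0.1 to each FPKM. Coordinates and names came from RefSeq (ASM1834038v1), which matched 4 of 4 members. Alternatives were DESeq2 1.42.0, limma 3.58.1, RLE size factors, a robust fit, other filters, a replicate block and single libraries left out. The code was tested on simulated data.

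Members and lists were chosen with earlier results of these data known. Every member was named, and pathway genes only at an unadjusted p under 0.05 or among the 3 highest in FPKM, except mtr. Further software was matplotlib 3.10.9 for plots, scipy 1.17.1 for permutations, and data.table, numpy 2.4.6 and pandas 2.3.3 (Python 3.11.15).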

Additional observations from a re-analysis of the deposited data

How the results depend on the processing

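No member was called, and none changed the sign of its log2 fold change, under any alternative run; dnmt3ab was not tested with at least 10 counts in every library. The smallest adjusted p over the alternatives was 0.895 for dnmt3ba, 0.930 for dnmt3ab, 0.952 for mbd3b and 0.923 for mbd4. The count of all genes called, 4 in the edgeR test, was 58 with DESeq2, 7 with limma on log2(FPKM + 0.1), 2 with annotated genes only, 1 with at least 10 counts in every library, and 3 to 9 with single libraries left out (9 without fresh-sperm replicate 3). It was 7 without both libraries numbered 3, which was chosen after seeing the data. The log2 ratio of dnmt3ba to dnmt3ab, aged minus fresh, was -0.0098 with FPKM + 1, 0.27 from estimated counts and 0.02 to 0.27 with single libraries left out. That of mbd3b to mbd4 was -1.02 to 0.024, above 0 without aged-sperm replicate 3 (0.024) and without fresh-sperm replicate 2 (0.00031). The cause of these changes of sign was not tested.

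Libraries with the same replicate number deviated together at r = -0.0024, 0.037 and 0.089 over the 27342 tested features. Each was the highest for its library except for replicate 1. Both libraries numbered 3 also stood apart on the first principal component, at 53.2 and 44.0. No source ties a number to a male, so the numbers were not taken as pairs, and these values do not decide whether they are. With the replicate block 0 genes were called, the log2 fold change of mbd4 was 0.55, and no member changed its call. The SE of dnmt3ba was 0.035 with the block and 0.052 without it (edgeR unadjusted p = 0.173 and 0.316). For dnmt3ab and mbd4 the SE was also lower with the block, and for mbd3b it was higher (0.249 against 0.226). The 65 counts of dnmt3ab limit what could be detected for it. mbd3b and mbd4 had like totals (224 and 175 counts) but an SE of 0.23 and 0.62.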
